A study of Homo sapiens with 8 samples.

Results

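The 3p arms of the let-7 hairpins were examined by locus in 4 parental human cancer cell lines. A miRNA hairpin is cut into a 5p and a 3p strand, and one strand is usually retained by the Argonaute protein as the guide while the other is mostly degraded. The let-7 family is a textbook case: its 5p strands share one seed, limit proliferation and are low in embryonic cells and in many tumors, where the RNA-binding protein LIN28 blocks the maturation of let-7 precursors. Because 3 loci give the same let-7a-5p strand and 2 loci the same let-7f-5p strand, these 5p read counts cannot say which locus was transcribed. The other let-7-5p sequences match the genome exactly at 1 place each. The 3p strands differ more in sequence and mostly name 1 locus. The members were the 10 names of the deposited miRNA table that carry a let-7 3p arm, out of 2588 names, and reads of entries sharing a name were summed.

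Small RNA-seq had been performed on 2 libraries each of ES-2 (derived from ovarian cancer), MV-3 (melanoma), Huh-7 (hepatocellular carcinoma) and A-549 (lung adenocarcinoma). No agent was applied and no gene was altered. All cells were parental, were kept in serum-containing DMEM, and were harvested 48 h after seeding. Each line stands for 1 tumor-derived culture, so that differences between lines cannot be assigned to the tissue of origin. Between 1173902 and 2670030 reads per library fell on mature miRNAs, and values are given as reads or as normalised CPM, the deposited counts scaled between libraries by the trimmed mean of M values (TMM). In RNA of whole cultures, fewer expressing cells and less RNA per cell cannot be told apart.

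Marker miRNAs were inspected to check the labels. Both hepatocyte markers, miR-122-5p and miR-885-5p, had a summed level between 84424 and 89378 normalised CPM in the Huh-7 libraries and between 3.27 and 40.7 in the other lines. The melanocyte marker miR-211-5p had 0 reads in MV-3, where it would mark melanocytic cells. Of 3 blood cell markers, miR-142-3p was at 376 and 337 normalised CPM in the ES-2 libraries and at 0 in the other lines, whereas miR-451a had at most 1.64 and miR-223-3p at most 1.64 in any library. Both epithelial markers together reached between 12.6 normalised CPM (MV-3) and 130 (Huh-7), with miR-141-3p at 5.65 or less. Their part in the results on let-7 was not tested.

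The mature 3p sequences are shown first, since their differences allow the loci to be told apart. RefSeq hairpins on GRCh38.p14 gave a sequence for 9 of the 10 names, let-7f-2-3p being the exception. Sequences run 5′ to 3′, and capitals mark the seed, bases 2 to 8. The 5p strand of let-7a is added for comparison, because its seed is common to all 8 let-7-5p names:
hsa-let-7a-3p: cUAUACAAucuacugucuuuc
hsa-let-7b-3p: cUAUACAAccuacugccuuccc
hsa-let-7f-1-3p: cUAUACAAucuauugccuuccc
hsa-let-7a-2-3p: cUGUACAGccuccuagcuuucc
hsa-let-7g-3p: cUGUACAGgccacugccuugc
hsa-let-7c-3p: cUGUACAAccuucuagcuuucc
hsa-let-7d-3p: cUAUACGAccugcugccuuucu
hsa-let-7e-3p: cUAUACGGccuccuagcuuucc
hsa-let-7i-3p: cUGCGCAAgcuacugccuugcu
hsa-let-7a-5p: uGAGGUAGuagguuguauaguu

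The 9 sequences of 21 or 22 bases carry 6 seeds, of which 2 are shared: UAUACAA by let-7a-3p, let-7b-3p and let-7f-1-3p, and UGUACAG by let-7a-2-3p and let-7g-3p. Over the 36 pairs of 3p sequences the edit distance (substitutions, insertions and deletions) was at least 2, with a median of 6 and a maximum of 11. Over the 28 pairs of 5p sequences the median was 3, and 4 pairs differed by 1 change. In the genome, let-7a-3p matched exactly at 2 places, MIRLET7A1 on chromosome 9 and MIRLET7A3 on chromosome 22, and the other 8 sequences matched exactly once, at their own hairpin.

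The 11 hairpins lie at 8 places on GRCh38. MIRLET7A1 (chr9:94175957-94176036), MIRLET7F1 (chr9:94176347-94176433) and MIRLET7D (chr9:94178834-94178920) are exonic in the non-coding host gene MIRLET7A1HG, with gaps of 310 and 2400 bases. MIRLET7A3 (chr22:46112749-46112822) and MIRLET7B (chr22:46113686-46113768) are 863 bases apart in an exon of MIRLET7BHG. Another 3 loci neighbour hairpins of the miR-99/100 and miR-125 families. MIRLET7A2 (chr11:122146522-122146593) is intronic in MIR100HG together with MIR100 and MIR125B1. MIRLET7C (chr21:16539828-16539911) overlaps an exon of MIR99AHG, 658 bases from MIR99A. MIRLET7E (chr19:51692786-51692864) lies in an intron of SPACA6 between MIR99B and MIR125A, at gaps of 104 and 389 bases. MIRLET7F2 (chrX:53557192-53557274) is intronic in HUWE1, 850 bases from MIR98. MIRLET7G (chr3:52268278-52268361) is intronic in WDR82, and MIRLET7I (chr12:62603686-62603769) is intronic in MIRLET7IHG.

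The 3p arms were unequal in abundance, and 2 of them dominated. let-7d-3p had 4517 reads over the 8 libraries and a mean of 352 normalised CPM, which placed it 106th of the 1327 names with any read. let-7a-3p followed with 2025 reads and 160 normalised CPM. Next came let-7b-3p at 37.7, let-7i-3p at 34.0, let-7e-3p at 24.7 and let-7a-2-3p at 14.7 normalised CPM. let-7c-3p, let-7f-1-3p and let-7f-2-3p averaged 4.88, 4.57 and 4.18 normalised CPM. let-7g-3p had 4 reads, all of them in ES-2 replicate 2. More than 3 reads in both libraries were found for 7 arms in MV-3, 9 in ES-2, 7 in A-549 and 3 in Huh-7. In Huh-7, 6 arms had 0 reads in both libraries, against 1 in MV-3, 0 in ES-2 and 1 in A-549.

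**Figure D1:**
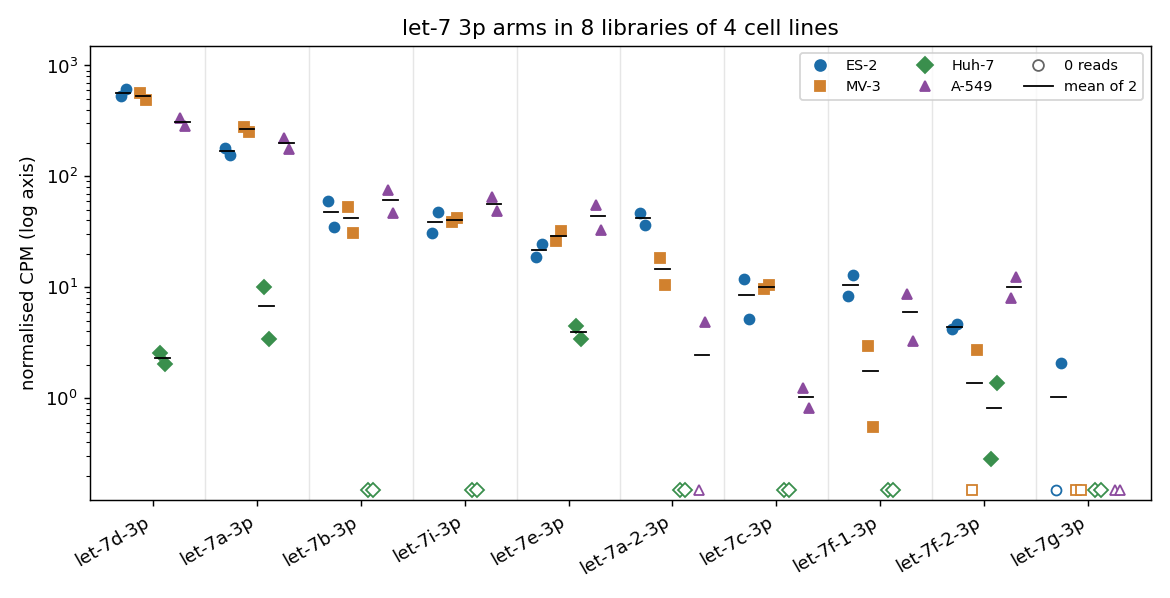
Normalised CPM (log axis) of the 10 let-7 3p arms in 8 libraries; filled points are libraries, bars are the mean of 2 libraries and open points at the bottom are libraries with 0 reads. let-7d-3p is highest in ES-2, MV-3 and A-549, with means of 570, 527 and 311, and in Huh-7 let-7a-3p, let-7e-3p, let-7d-3p and let-7f-2-3p are the arms with reads.

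Summed over the 10 arms, the level was 934 ± 82.5 normalised CPM in MV-3, 913 ± 28.2 in ES-2, 691 ± 115 in A-549 and 13.9 ± 5.10 in Huh-7 (SD, n = 2). The summed arms rested on 1340 and 1595 reads in MV-3, 1286 and 1816 in ES-2, 1254 and 745 in A-549, and 62 and 30 in Huh-7. Both Huh-7 libraries thus lay below every library of the other lines. Within all let-7 reads of both arms, the 3p arms made up 0.626% ± 0.0792 in MV-3, 0.381% ± 0.00867 in ES-2, 0.374% ± 0.105 in A-549 and 0.160% ± 0.0649 in Huh-7 (SD, n = 2).

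The make-up of the 3p reads also differed between lines. let-7d-3p gave 56.5% ± 0.338 of the let-7 3p reads in MV-3, 62.4% ± 4.17 in ES-2, 45.1% ± 2.03 in A-549 and 17.3% ± 3.88 in Huh-7 (SD, n = 2). let-7e-3p gave 29.6% ± 5.32 in Huh-7 against 2.37% ± 0.384 for ES-2, 3.16% ± 0.769 for MV-3 and 6.27% ± 1.28 for A-549. The 2 Huh-7 libraries lay outside the range of the other 6 for both arms. let-7a-3p gave 28.6% ± 0.482 in MV-3, 18.5% ± 2.55 in ES-2, 28.8% ± 0.314 in A-549 and 45.7% ± 17.5 in Huh-7. Few reads stand behind the Huh-7 shares: in replicate 1, 9 of 62 reads were let-7d-3p, and in replicate 2, 6 of 30. The 95% Wilson intervals of these shares ran from 7.83% to 25.3% and from 9.51% to 37.3%, which cover counting error only.

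**Figure D2:**
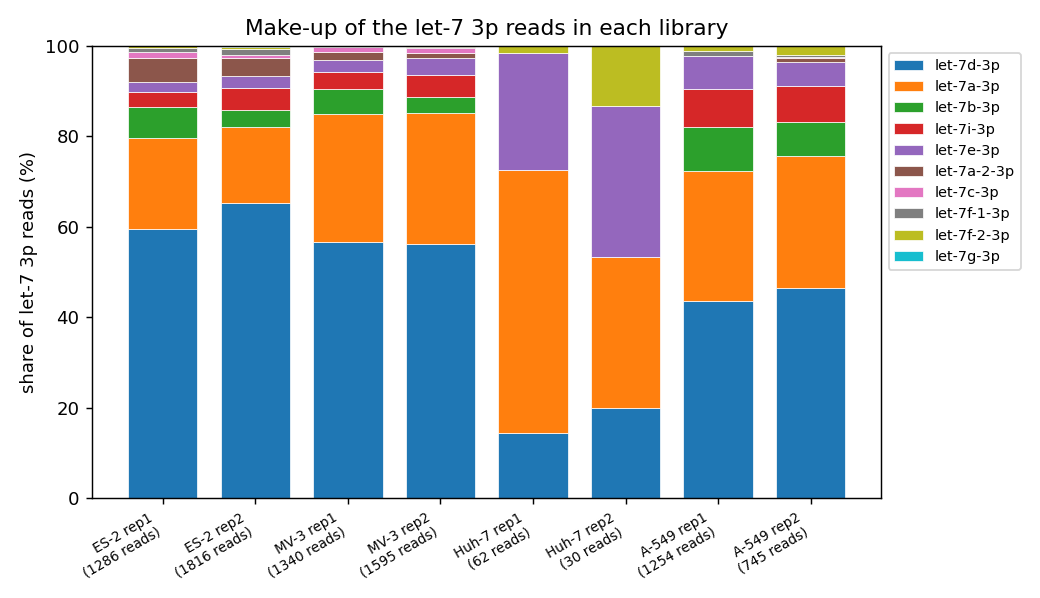
Stacked bars give each arm's share (%) of the let-7 3p reads in each of the 8 libraries, with the number of reads in parentheses. let-7d-3p takes between 43.7% and 65.3% in the libraries of ES-2, MV-3 and A-549 and at least 14.5% in those of Huh-7, where let-7e-3p takes 25.8% and 33.3%.

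Grouped by seed, the 3 arms with UAUACAA summed to 311 ± 36.8 normalised CPM in MV-3, 227 ± 32.9 in ES-2, 266 ± 55.3 in A-549 and 6.78 ± 4.75 in Huh-7 (SD, n = 2). The Huh-7 reads of this seed were all let-7a-3p. The 2 arms with UGUACAG summed to 14.5 ± 5.71 normalised CPM in MV-3, 42.9 ± 6.14 in ES-2, 2.45 ± 3.47 in A-549 and 0 in Huh-7. let-7d-3p, with a seed of its own, exceeded both groups in MV-3, ES-2 and A-549.

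Differences between lines were tested with limma on log2(normalised CPM + 1) for the 528 miRNAs that passed a filter on low counts, and a miRNA was called at a Benjamini-Hochberg adjusted p below 0.01. Of the 10 arms, 9 passed the filter and let-7g-3p did not. An arm with reads in some lines and 0 in Huh-7 passes through the lines where it is high, so the counts below describe the arms and are no support for a common direction. Over the 4 lines jointly, 8 of the 9 arms were called, the exception being let-7f-2-3p (limma, adjusted p = 0.0245), against 68.2% of all miRNAs tested. Without either Huh-7 library, 5 arms were called over the 4 lines.

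Against ES-2, Huh-7 had lower levels of 8 arms, while 21.6% of all miRNAs tested were called lower. Against MV-3, 7 arms were called lower in Huh-7 beside 20.1% of all miRNAs. A-549 had higher levels than Huh-7 for 6 arms beside 28.6% of all miRNAs. The median log2 fold change of the 9 arms was -4.59 for Huh-7 against ES-2, -3.90 against MV-3 and 3.14 for A-549 against Huh-7, beside medians over all miRNAs of 0.34, 0.19 and -0.09. With arms at 0 reads set to their bound, the median against MV-3 was -3.95. These comparisons share the Huh-7 libraries. Leaving out any ES-2 or Huh-7 library brought the count of arms called lower than in ES-2 to 5, the calls of let-7a-2-3p, let-7e-3p and let-7f-1-3p being lost.

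The chromosome 9 cluster held the arm with the highest level in ES-2, MV-3 and A-549. hsa-let-7d-3p had 760 and 897 reads in MV-3, 764 and 1186 in ES-2, 548 and 347 in A-549, and 9 and 6 in Huh-7. Its level was 527 ± 49.7 normalised CPM in MV-3, 570 ± 55.7 in ES-2, 311 ± 37.9 in A-549 and 2.29 ± 0.343 in Huh-7 (SD, n = 2). Both Huh-7 libraries were far below all others, and both A-549 libraries were below those of ES-2 and MV-3. Huh-7 differed from ES-2 by a log2 fold change of -7.44 (SE 0.16, limma adjusted p = 1.46e-07) and from MV-3 by -7.33 (adjusted p = 1.75e-07). A-549 was also called lower than ES-2, by a log2 fold change of -0.88 (SE 0.16, limma adjusted p = 0.00414), and lower than MV-3, by -0.76 (adjusted p = 0.00788). Both A-549 calls of let-7d-3p were lost when libraries were left out. Against MV-3, leaving out any 1 of the 8 libraries gave an adjusted p between 0.0117 and 0.0545 (hsa-let-7d-3p, limma). Against ES-2, leaving out any 1 library of ES-2 or A-549, or MV-3 replicate 1, gave between 0.0101 and 0.0293.

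hsa-let-7f-1-3p, from the same cluster, had few reads: 4 and 1 in MV-3, 12 and 25 in ES-2, 14 and 4 in A-549, and 0 and 0 in Huh-7. In normalised CPM the libraries of ES-2 and A-549 overlapped, MV-3 lay below both and Huh-7 lay at 0. Against the floor of 3 reads per library, let-7f-1-3p in normalised CPM was at least 11.3-fold higher in ES-2 and at least 6.36-fold higher in A-549 than in Huh-7. Both differences were called (limma adjusted p = 0.00213 and 0.00682), whereas MV-3 was not called against Huh-7 (adjusted p = 0.0985). For let-7f-1-3p, leaving out any library of the lines compared took the adjusted p against ES-2 above 0.01, up to 0.0245. For A-549 against Huh-7 it reached 0.0511 without Huh-7 replicate 1.

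hsa-let-7a-3p comes from chromosomes 9 and 22, and its reads cannot be divided between the loci. The deposited table held an entry for each, and the reads were split into 1003 (49.5%) for chromosome 9 and 1022 (50.5%) for chromosome 22, while its sequence matches both places exactly. let-7a-3p had 379 and 462 reads in MV-3, 261 and 303 in ES-2, 358 and 216 in A-549, and 36 and 10 in Huh-7. Its Huh-7 level was 6.78 ± 4.75 normalised CPM, against 267 ± 19.1 in MV-3, 168 ± 18.1 in ES-2 and 199 ± 30.9 in A-549 (SD, n = 2). The other lines differed little beside the distance to Huh-7. Log2 fold changes of Huh-7 were -4.59 against ES-2 and -5.25 against MV-3 (SE 0.42, limma adjusted p = 0.00011 and 6.59e-05), and A-549 exceeded Huh-7 by 4.82 (adjusted p = 9.27e-05).

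hsa-let-7b-3p, which marks the chromosome 22 locus alone, had 72 and 56 reads in MV-3, 87 and 68 in ES-2, 123 and 57 in A-549, and 0 in both Huh-7 libraries. In normalised CPM its mean was therefore at least 45.0-fold higher in MV-3, 51.0-fold in ES-2 and 65.4-fold in A-549 than in Huh-7 (limma adjusted p = 9.64e-05, 7.77e-05 and 5.75e-05). Scaled by library size alone, A-549 had the lowest let-7b-3p mean of these lines, at 36.9 CPM against 41.0 in ES-2 and 48.7 in MV-3. ES-2, MV-3 and A-549 overlapped in their libraries and were not called against each other.

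hsa-let-7i-3p, from chromosome 12, showed a similar range. It had 52 and 77 reads in MV-3, 44 and 92 in ES-2, 106 and 59 in A-549, and 0 in both Huh-7 libraries. The bounds in normalised CPM were at least 41.6-fold for ES-2, 43.2-fold for MV-3 and 60.7-fold for A-549 over Huh-7 (limma adjusted p = 2.94e-05, 3.05e-05 and 1.82e-05). In normalised CPM, both libraries of A-549 exceeded those of ES-2 and MV-3, but scaled by library size alone A-549 lay below MV-3 (34.2 against 47.0 CPM for hsa-let-7i-3p). The fold changes of 0.55 and 0.47 on the log2 scale were not called (limma adjusted p = 0.242 and 0.328).

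hsa-let-7e-3p, from chromosome 19, was the arm with the smallest called difference of Huh-7 to ES-2 and to MV-3, arms at 0 reads being taken at their bounds. It had 35 and 59 reads in MV-3, 27 and 48 in ES-2, 90 and 40 in A-549, and 16 and 10 in Huh-7. In normalised CPM, Huh-7 stood at 3.96 ± 0.771, below 29.1 ± 4.57 in MV-3, 21.7 ± 4.18 in ES-2 and 44.1 ± 16.0 in A-549 (SD, n = 2). The log2 fold change of Huh-7 was -2.19 against ES-2 (SE 0.39, limma adjusted p = 0.00275) and -2.60 against MV-3 (adjusted p = 0.00127), and A-549 exceeded Huh-7 by 3.14 (adjusted p = 0.000485). Scaling by library size alone took the difference to ES-2 to -1.36 (adjusted p = 0.0187), and the call was also lost without any 1 library of ES-2 or Huh-7, with adjusted p up to 0.0231. Against MV-3 it was lost without MV-3 replicate 2 (adjusted p = 0.0111) or Huh-7 replicate 2 (0.0129).

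hsa-let-7a-2-3p separates the chromosome 11 locus from the other let-7a loci. It had 25 and 19 reads in MV-3, 68 and 71 in ES-2, 0 and 6 in A-549, and 0 and 0 in Huh-7. From high to low the order was ES-2, MV-3, A-549 and Huh-7, with no overlap between ES-2, MV-3 and the other two lines. Against Huh-7 it was, in normalised CPM, at least 44.8-fold higher in ES-2 and at least 15.5-fold higher in MV-3 (limma adjusted p = 0.00142 and 0.00662). A-549 was called lower than ES-2 by a log2 fold change of -4.13 (SE 0.83, limma adjusted p = 0.00582), and 17.6% of all miRNAs tested were called lower there. This call was lost without any 1 library of ES-2, MV-3 or Huh-7, with adjusted p between 0.0138 and 0.0410. Against MV-3 the log2 fold change of A-549 was -2.62 and was not called (adjusted p = 0.0378). The call of Huh-7 against MV-3 was lost without any 1 library of ES-2, MV-3 or Huh-7, with adjusted p up to 0.0541.

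hsa-let-7c-3p, from chromosome 21, had 13 and 19 reads in MV-3, 17 and 10 in ES-2, 2 and 1 in A-549, and 0 and 0 in Huh-7. ES-2 and MV-3 overlapped, and both lay above A-549 and Huh-7. In normalised CPM it was at least 9.06-fold higher in ES-2 and at least 10.7-fold higher in MV-3 than in Huh-7 (limma adjusted p = 0.000533 and 0.000351). Over A-549, the ratio of pooled levels was 7.56 for ES-2 (exact 95% interval 2.33 to 39.0) and 9.57 for MV-3 (2.99 to 48.8), counting error only. limma called A-549 lower than both (adjusted p = 0.00409 and 0.00234), and 15.5% of all miRNAs tested were called lower than in MV-3. edgeR's quasi-likelihood test on reads gave adjusted p of 0.0268 and 0.0184, and DESeq2 gave 0.0882 and 0.0632. Without A-549 replicate 1 both limma calls were lost, at log2 fold changes of -2.29 against ES-2 and -2.60 against MV-3. Without A-549 replicate 2 both were lost as well, at -1.99 and -2.30. Without Huh-7 replicate 1, limma gave 0.0152 against ES-2 and 0.0101 against MV-3, and without MV-3 replicate 1 it gave 0.0139 against MV-3.

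hsa-let-7f-2-3p, from the X chromosome, had 0 and 5 reads in MV-3, 6 and 9 in ES-2, 13 and 15 in A-549, and 1 and 4 in Huh-7. Both A-549 libraries lay above all others, while MV-3 and Huh-7 overlapped. No pair of lines was called: the smallest adjusted p was 0.0122, for A-549 against Huh-7, at a log2 fold change of 2.65 (SE 0.66). Its Huh-7 level of 0.824 ± 0.767 normalised CPM (SD, n = 2) was under the 3-read floor of both libraries. let-7g-3p was detected in no line beyond 4 reads in 1 library, although let-7g-5p had 61359 reads in ES-2.

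ES-2 and MV-3 were the pair with the fewest differences: 0 of the 9 arms were called by limma, beside 25.8% of all miRNAs tested. edgeR and DESeq2 also called 0. At an unadjusted p under 0.05 there was 1 arm, let-7f-1-3p (log2 fold change -2.20, limma adjusted p = 0.0273). A-549 against ES-2 gave 3 calls and A-549 against MV-3 gave 2, all lower in A-549, beside 17.6% and 15.5% of all miRNAs, with medians over the 9 arms of 0.23 and 0.47 on the log2 scale and over all miRNAs of 0.00 and 0.08. Scaled by library size alone, the medians over the arms were -0.28 and -0.46. Leaving out any 1 library gave 1 or 2 calls against ES-2 and 0 or 1 against MV-3 (without MV-3 replicate 2 this was let-7f-2-3p, called higher in A-549), and fitting without the filter gave 0 for both.

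All 9 strands of the 5p list (8 let-7-5p names and miR-98-5p) were called, and each was lower in Huh-7 than in the other lines, except that hsa-let-7c-5p scaled by library size alone was higher in Huh-7 than in A-549 (823 against 587 CPM). The size differed by name: against ES-2, log2 fold changes in Huh-7 were -11.07 (let-7i-5p), -8.39 (let-7b-5p), -7.92 (let-7d-5p), -6.36 (let-7g-5p), -5.51 (let-7a-5p) and -3.53 (let-7f-5p), with the smallest being -1.17 (let-7e-5p) and -2.01 (let-7c-5p) (limma adjusted p up to 0.000162). The 5p strands of let-7c and let-7e stood at 493 ± 6.19 and 2609 ± 172 normalised CPM in Huh-7 (SD, n = 2).

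The balance of both arms was compared within libraries, which needs no scaling between them. For let-7d the 3p arm gave 25.1% ± 1.37 of the hairpin's reads in MV-3, 19.4% ± 1.03 in ES-2, 20.4% ± 3.45 in A-549 and 20.7% ± 1.01 in Huh-7 (SD, n = 2). Both arms of let-7d were therefore low together in Huh-7, with 58 reads of the 5p and 15 of the 3p strand. The log2 ratio of the arms was not shown to differ over the lines (exact permutation test of the F ratio, p = 0.2, adjusted p = 0.349), and the smallest p this design allows is 0.00952. For the other 7 names the 3p arm gave at most 1.11% of the reads in any line.

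**Figure D3:**
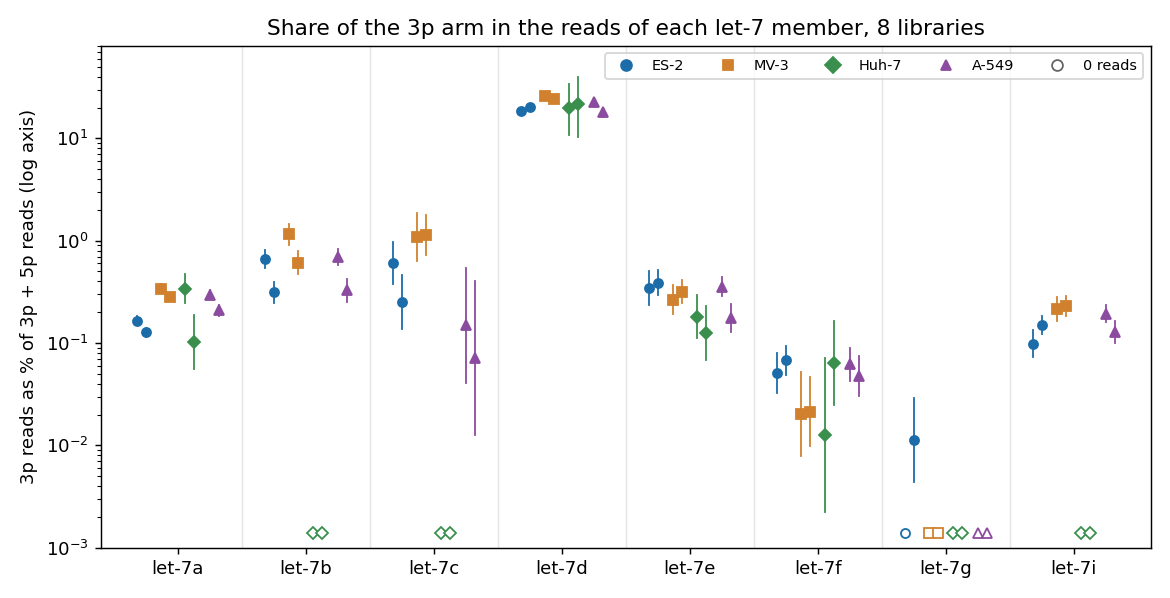
Reads of the 3p arm as a percentage of 3p and 5p reads (log axis) for each let-7 member in 8 libraries, with 95% Wilson intervals as lines; open points at the bottom are libraries with 0 reads of the 3p arm. let-7d stands between 18.0% (A-549 replicate 2) and 26.0% (MV-3 replicate 1), with both MV-3 libraries highest. The others stay near 1% or below.

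let-7c gave the lowest p among the arm ratios. Its 3p arm gave 1.11% ± 0.0388 of the reads in MV-3, 0.428% ± 0.251 in ES-2 and 0.111% ± 0.0551 in A-549 (SD, n = 2). In Huh-7, let-7c had 0 reads of the 3p beside 1768 and 1432 of the 5p strand, which at 3 reads per library allows shares of up to 0.170% and 0.209%, above the A-549 share. The exact permutation test gave the smallest p it can reach, 0.00952, and the adjusted p over the 10 ratios tested was 0.0952, so the difference did not pass. The Huh-7 ratio behind this p depends on the 0.5 reads added. For let-7e the shares were 0.292% ± 0.0367 in MV-3, 0.366% ± 0.0307 in ES-2, 0.266% ± 0.128 in A-549 and 0.153% ± 0.0395 in Huh-7 (exact permutation p = 0.21, adjusted p = 0.349).

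For let-7b, let-7g and let-7i the 5p strand was itself too rare in Huh-7 to show a 3p share like that of the other lines. For let-7i, 0 of 31 and 0 of 60 reads allow up to 9.68% and 5.00% in the Huh-7 libraries, and the other lines had between 0.125% and 0.221%. For let-7b, 0 of 70 and 0 of 124 reads allow up to 4.29% and 2.42%, and the other lines had between 0.488% and 0.880%. A difference in arm balance was not detectable at this depth for these names. let-7g-3p had 4 reads beside 61359 of the 5p strand in ES-2. Its 0 reads in MV-3 and A-549 allow shares of up to 0.0302% and 0.0217% in the MV-3 libraries and 0.0205% and 0.0236% in those of A-549.

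Sister loci of the same 5p strand were compared by the read ratio of their 3p arms. The log2 ratio of let-7a-3p to let-7a-2-3p was 4.23 ± 0.475 in MV-3, 2.01 ± 0.108 in ES-2, 7.27 ± 3.13 in A-549 and 5.29 ± 1.27 in Huh-7 (SD, n = 2, with 0.5 reads added), and the exact permutation test gave p = 0.0857 and an adjusted p of 0.286. Where let-7a-2-3p had 0 reads, this ratio depends on the added value. For let-7f-1-3p to let-7f-2-3p the ratio was 0.65 ± 3.57 in MV-3, 1.18 ± 0.34 in ES-2, -0.84 ± 1.33 in A-549 and -2.38 ± 1.12 in Huh-7 (exact permutation p = 0.429, adjusted p = 0.497). Both f names had reads in ES-2, MV-3 and A-549, in MV-3 only 4 and 1 of let-7f-1-3p and 0 and 5 of let-7f-2-3p. In Huh-7, 5 reads were counted for let-7f-2-3p on the X chromosome and 0 for let-7f-1-3p on chromosome 9. Without a sequence, exact genome matches of let-7f-2-3p were not checked. No ratio reached an adjusted p below 0.05 over the lines, which a ratio standing alone at the smallest p could not do: let-7c, at 0.00952, had an adjusted p of 0.0952.

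Neighbouring hairpins of the same host transcripts gave further readings of the let-7 loci. Of 14 neighbour miRNAs, 11 passed the filter. Against ES-2, 3 of the 11 were called higher and 5 lower in Huh-7, beside 27.7% and 21.6% of all miRNAs tested. Against MV-3, 1 was called higher and 8 lower in Huh-7, beside 26.9% and 20.1%.

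On chromosome 11, the 3p arms of all 3 hairpins had 0 reads in Huh-7 and were low in A-549. miR-100-3p stood at 65.9 ± 5.31 normalised CPM in MV-3, 88.4 ± 4.51 in ES-2, 4.51 ± 4.07 in A-549 and 0 in Huh-7. miR-125b-1-3p, the strand that marks the chromosome 11 copy of miR-125b, stood in the same order at 631 ± 68.8, 604 ± 65.9, 73.0 ± 14.2 and 0 (SD, n = 2). Compared with ES-2, both were called lower in Huh-7 (limma adjusted p = 9.76e-05 and 1.46e-07) and in A-549 (0.000951 and 3.51e-05). hsa-miR-100-5p had 868 and 593 reads in Huh-7 against 185512 and 254171 in ES-2, a log2 fold change of -9.18 (limma adjusted p = 1.52e-08).

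On chromosome 21, let-7c-3p had 0 reads in Huh-7, and its neighbours differed among themselves. miR-99a-3p, the same arm of the nearest neighbour, had 2 and 4 reads in Huh-7, at most 4 in any library, and did not pass the filter. miR-99a-5p stood at 423 ± 55.4 normalised CPM in MV-3, 910 ± 17.6 in ES-2, 277 ± 14.1 in A-549 and 2019 ± 135 in Huh-7. Huh-7 was called higher than ES-2 by 1.15 on the log2 scale (limma adjusted p = 0.00014). miR-125b-2-3p, which marks the chromosome 21 copy of miR-125b, stood in the same order at 84.1 ± 3.73, 66.4 ± 8.50, 20.5 ± 9.32 and 148 ± 27.6 (SD, n = 2), and the difference of Huh-7 to ES-2 was not called (adjusted p = 0.0233). In A-549, let-7c-3p, miR-99a-5p and miR-125b-2-3p were each called lower than in ES-2.

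On chromosome 19, fold changes of let-7e-3p and its neighbours in normalised CPM had opposite directions in Huh-7 against ES-2. Against MV-3 and A-549 they shared a direction, by different amounts. miR-99b-5p exceeded its ES-2 level in Huh-7 by 0.94 and miR-125a-5p by 0.55 on the log2 scale (limma adjusted p = 4.54e-05 and 9.37e-05). Their 3p arms were not called in that comparison, with log2 fold changes of 0.58 for miR-99b-3p (adjusted p = 0.0274) and 0.24 for miR-125a-3p (adjusted p = 0.673). let-7e-3p and let-7e-5p were called lower. Against MV-3, miR-99b-5p, miR-99b-3p and miR-125a-5p were also called lower in Huh-7, by -0.37, -2.18 and -0.25 on the log2 scale. miR-125a-3p, at -1.05, was not called. A-549 was called higher than Huh-7 for miR-99b-5p (0.72) and miR-125a-5p (1.09), and not called for miR-99b-3p (0.41) and miR-125a-3p (1.19). The log2 fold change of let-7e-3p was -2.60 for Huh-7 against MV-3 and 3.14 for A-549 against Huh-7, both called.

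On the X chromosome, miR-98-3p had 21 and 16 reads in MV-3, 20 and 39 in ES-2, 25 and 18 in A-549, and 1 and 0 in Huh-7, and Huh-7 was called lower against ES-2 (log2 fold change -3.97, limma adjusted p = 0.000251). On chromosome 22, miR-4763-5p and miR-4763-3p had at most 5 reads in a library and did not pass the filter.

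**Figure D4:**
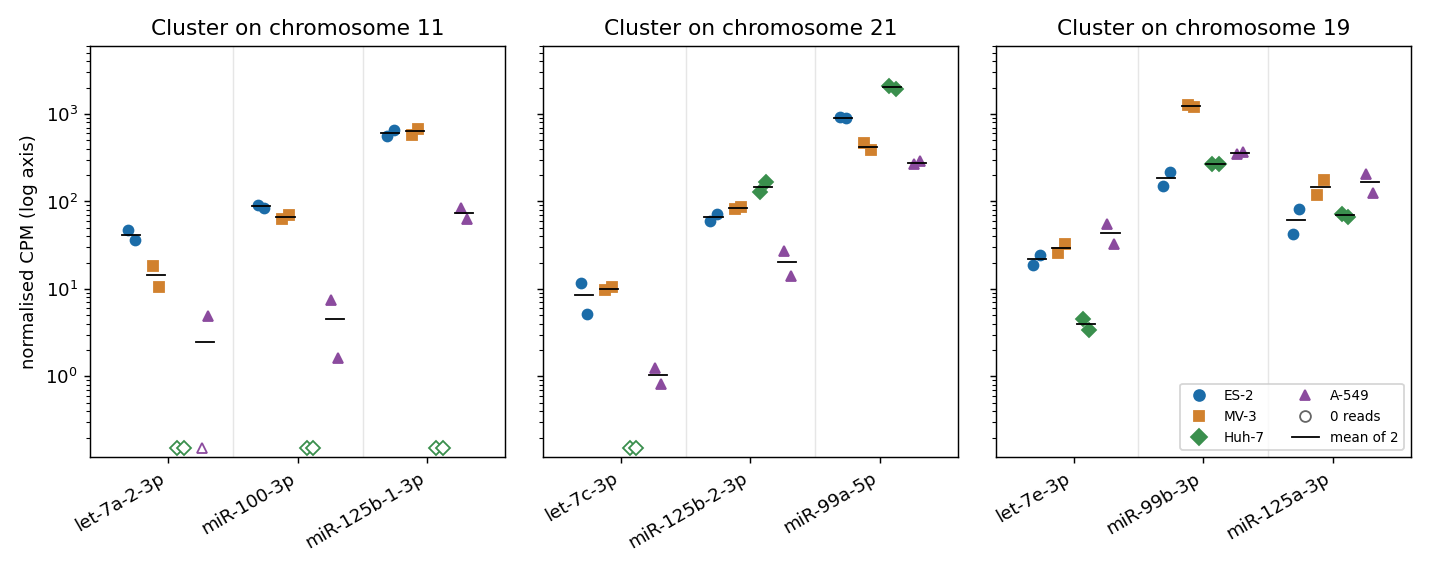
Normalised CPM (log axis) of let-7 3p arms and neighbouring miRNAs at 3 clusters; filled points are libraries, bars are means of 2 libraries and open points at the bottom are libraries with 0 reads. In Huh-7 the 3 arms of chromosome 11 have 0 reads, and on chromosome 21 let-7c-3p has 0 reads while miR-125b-2-3p has a mean of 148 and miR-99a-5p of 2019.

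Within libraries, the read ratio of 3p arms to a neighbour's 3p arm was tested for 6 pairs, chosen after their values were seen. The log2 ratio of let-7e-3p to miR-125a-3p was -2.31 ± 0.198 in MV-3, -1.44 ± 0.393 in ES-2, -1.90 ± 0.0129 in A-549 and -4.09 ± 0.198 in Huh-7 (SD, n = 2; exact permutation p = 0.00952, adjusted p = 0.0571). The ratio of let-7e-3p to miR-99b-3p was -5.40 ± 0.275, -3.05 ± 0.12, -3.07 ± 0.593 and -6.05 ± 0.265 in the same order (exact permutation p = 0.0286, adjusted p = 0.0857). The ratio of let-7c-3p to miR-125b-2-3p was -9.89 ± 0.0731 in Huh-7, with 0 and 0 against 457 and 491 reads. This Huh-7 value depends on the 0.5 reads added, and its SD reflects the reads of miR-125b-2-3p only. In ES-2, MV-3 and A-549 the ratio was -3.04 ± 1.01, -3.03 ± 0.00713 and -3.85 ± 0.431 (exact permutation over the lines, p = 0.0762, adjusted p = 0.0914). None of the 6 passed an adjusted p of 0.05, which a ratio standing alone at the smallest p of 0.00952 could not do, as let-7e-3p to miR-125a-3p shows.

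For the 3 arms with the highest mean, the miRNAs with the most similar profile were sought among 509 others by Pearson correlation over the 8 libraries, which share lines in pairs and a common scaling. For let-7d-3p these were miR-27a-5p (r = 0.993), miR-7974 (r = 0.988) and miR-361-5p (r = 0.983). For let-7a-3p they were miR-27a-3p (r = 0.986), miR-23a-3p (r = 0.979) and miR-27a-5p (r = 0.977), and for let-7b-3p miR-27a-5p (r = 0.989), miR-135b-5p (r = 0.987) and miR-31-5p (r = 0.986). The named miRNAs were not alone: of the 509, r was above 0.95 for 19 with let-7d-3p, 10 with let-7a-3p and 15 with let-7b-3p. These values are descriptions over 4 lines of 2 libraries each.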

How the data were processed

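Small RNA-seq libraries of 4 human cancer cell lines, 2 per line, were assigned to lines by their labels. The authors trimmed reads with Cutadapt 1.14, aligned them to GRCh38 with Bowtie2 2.3.2 and counted miRBase mature miRNAs with featureCounts 1.5.3. How multi-mapping reads, strand and the random adapter bases were handled is not given in the sources used here. The deposited signal values are TMM-normalised CPM made by the authors with edgeR 3.18.1. Dividing each column by its own step gave whole reads for 100% of values (tolerance 0.001), and the scaling recomputed from them matched the deposited one within 4.76e-10. The table has 2813 entries for 2588 names, and the reads of entries sharing a name were summed.

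The main test was limma on log2(normalised CPM + 1), which understates the change of low miRNAs, with 1 term per line over 8 libraries (4 residual degrees of freedom), a mean-dependent prior variance and filterByExpr on recovered reads (528 miRNAs). Benjamini-Hochberg adjustment ran over all 528, with calls below 0.01. Arm ratios were tested by exact permutation, counting partitions with an F ratio at least as large, adjusted over 10 ratios, with a threshold of 0.05. The 6 neighbour ratios were added after the values were seen. A level in a line with 0 reads in both libraries was bounded by 3 reads per library, between 0.845 and 2.45 normalised CPM. Folds over this bound use the mean of 2 libraries and hold for TMM scaling only. Mean TMM factors were 1.67 in Huh-7, 1.16 in MV-3, 0.857 in ES-2 and 0.601 in A-549. Scaling by library size alone therefore makes the folds over Huh-7 smaller, most of all for A-549. Floors and Wilson intervals cover counting error only, since PCR copies were not known to be removed. The study calls the 2 libraries of each line biological replicates, and p values measure the spread between them. The limma step was tested on simulated reads.

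The named miRNAs were the 10 arms, the let-7-5p strands with miR-98-5p, miR-98-3p, the neighbours of the let-7 hairpins, the listed markers and the 3 miRNAs most similar to each of the 3 highest arms. The members and lists were chosen with earlier results of these data known. Alternatives were RLE factors, library size only, no filter, 10 CPM in 2 libraries, a pseudocount of 0.1, edgeR and DESeq2 on recovered reads, a replicate block, the highest entry of each name, an adjusted p below 0.05 and leaving out single libraries. For the ratios they were a larger added count and, chosen after seeing the data, leaving out Huh-7. Hairpins, host genes and exact genome matches came from RefSeq and GENCODE on GRCh38. Software was R 4.3.3, limma 3.58.1, edgeR 4.0.16, DESeq2 1.42.0, Python 3.11.15, SciPy 1.17.1 and Matplotlib 3.10.9.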

Additional observations from a re-analysis of the deposited data

How the results depend on the processing

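Of 54 fold changes of the arms, 26 were called, and none of these turned its direction in 466 values under the alternatives. Of the 466, 75 lost the call, spread over 11 of the 26. The cause of these changes was not tested. The counts of all miRNAs called stayed within 1.5 times under every alternative run. No arm or sister ratio reached an adjusted p below 0.05 under any, but the design left little room for another outcome. The smallest p of the exact permutation test, 0.00952, gave let-7c an adjusted p of 0.0952 over 10 ratios. Without the Huh-7 line the smallest p was 0.0667. The alternatives therefore do not show whether the ratios are stable or alike.

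The number of arms called moved in these cases. For MV-3 against ES-2 it was 1 at an adjusted p below 0.05. For A-549 against ES-2 it was 0 without the filter. For A-549 against MV-3 it was 0 without the filter, 1 with RLE factors, 1 with a pseudocount of 0.1, 1 with edgeR, 1 with DESeq2 and 4 at an adjusted p below 0.05. Smaller moves also occurred. Library size alone gave 7 for Huh-7 against ES-2, 5 for A-549 against Huh-7 and 3 for A-549 against MV-3. Without the filter, 6 were called for Huh-7 against MV-3 and 5 for A-549 against Huh-7. A pseudocount of 0.1 gave 6, 7 and 2 for Huh-7 against MV-3, A-549 against Huh-7 and A-549 against ES-2. For A-549 against Huh-7, RLE factors and DESeq2 gave 7. For A-549 against ES-2, edgeR and DESeq2 gave 2. Leaving out 1 library gave between 5 and 8 arms for Huh-7 against ES-2, between 1 and 2 for A-549 against ES-2, between 0 and 1 for A-549 against MV-3, and between 5 and 8 over the 4 lines.

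Fold changes that turned had not been called. Library size alone moved the median of all miRNAs by up to -1.28 on the log2 scale (A-549 against Huh-7) and turned 8 of them. These became 0.10 for let-7f-2-3p in Huh-7 against MV-3, 0.25 for let-7b-3p and 0.33 for let-7d-3p in MV-3 against ES-2, -0.28 for let-7a-3p and -0.14 for let-7b-3p in A-549 against ES-2, and -0.39 for let-7b-3p, -0.38 for let-7e-3p and -0.46 for let-7i-3p in A-549 against MV-3. A pseudocount of 0.1 gave 0.49 for let-7f-2-3p in Huh-7 against MV-3. Without 1 library, let-7f-2-3p in Huh-7 against MV-3 ranged from -1.10 to 0.80, let-7a-2-3p in A-549 against Huh-7 from 0.00 to 2.56, let-7b-3p in A-549 against ES-2 from -0.023 to 0.75, and in MV-3 against ES-2 let-7b-3p from -0.57 to 0.21, let-7c-3p from -0.22 to 0.84 and let-7i-3p from -0.22 to 0.39.

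The summed level with library size alone was 1086 in MV-3, 782 in ES-2, 416 in A-549 and 23.0 in Huh-7 (library CPM). Taking the highest entry of each name, which removes 1 of both let-7a-3p entries, gave a sum of 825 in ES-2 and 805 in MV-3. It gave let-7d-3p shares of 65.5% in MV-3, 69.0% in ES-2, 52.4% in A-549 and 23.8% in Huh-7, let-7a-3p shares of 17.2%, 9.83%, 17.3% and 25.6% in that order, and a let-7e-3p share of 40.8% in Huh-7.

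The labels state no pairing of libraries by replicate number, and the main test used none. Correlations of same-numbered residuals were between -0.05 and 0.232 over the 6 pairs of lines, which does not settle whether libraries were paired. With a replicate block, 6 arms were called for Huh-7 against MV-3, 7 for A-549 against Huh-7, 2 for A-549 against ES-2, 2 for A-549 against MV-3 and 9 over the 4 lines. The depth limits let-7c-3p, let-7f-1-3p, let-7f-2-3p and let-7g-3p, which had at most 25 reads in any library.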
